A study of Mus musculus with 120 samples.

Results

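Keratins are the intermediate filament proteins of epithelial cells, and 54 keratin genes were read out in an implanted scaffold that is filled mainly by macrophages and fibroblasts. They were taken as all genes whose symbol is Krt followed by a number and at most 1 letter, out of 55487 genes that both deposited count tables list. By where each keratin is known to be made, 3 were placed with the basal epidermis, 6 with the suprabasal epidermis, 6 with the follicle sheath and wound response, 8 with the inner root sheath, 15 with the hair shaft, 6 with simple epithelia and 4 with mucosa and cornea, and 6 were left as other keratins. On the GRCm38 mouse genome, 27 of them lie on chromosome 11, where type I keratins are clustered, and 27 on chromosome 15, which holds the type II cluster and *Krt18*.

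A keratin filament is built from obligate pairs of a type I and a type II protein, so that epithelial cells express them in fixed combinations. Dividing basal keratinocytes make Krt5 with Krt14 and switch to Krt1 with Krt10 as they move up. Hair follicles in their growth phase add further sets: the inner root sheath, which moulds the hair, makes Krt71 to Krt74 with Krt25 to Krt28, and the cortex and cuticle of the hair shaft make the cysteine-rich hair keratins of the Krt31 to Krt40 and Krt81 to Krt86 series. Glands and other simple epithelia, the mammary gland included, make Krt8 with Krt18, together with Krt7 and Krt19. None of these sets is typical of macrophages or fibroblasts.

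Promoter letters are shown for 6 keratins, all with the motif TATAAA, which most of the keratin promoters searched lacked. Promoters of other keratins in the results, such as *Krt8*, *Krt18*, *Krt5* and *Krt14*, are not shown. RefSeq promoters (GRCm38.p6) were found for 36 of the 54 keratins, and the 250 bases before the transcription start were searched on both strands for 4 motifs: TATAAA, the box of core promoters, CTTTGAA, bound by LEF1 and TCF factors, GGGCGG, bound by Sp1, and TGANTCA, bound by AP-1. All 6 promoters shown lie on the minus strand and are written 5′ to 3′ up to the last base before the start, with motif letters in capitals. They are, in order, chr15:101743098-101743197, chr11:99322952-99323051, chr11:100050552-100050801, chr11:100041555-100041804, chr11:99389365-99389464 and chr11:99438154-99438253. The inner root sheath pair *Krt71* and *Krt25*, the hair shaft keratins *Krt31* and *Krt34*, the suprabasal *Krt10* and the simple epithelial *Krt20* read as follows.
Krt71: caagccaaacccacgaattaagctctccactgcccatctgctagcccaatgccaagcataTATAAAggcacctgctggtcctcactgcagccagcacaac
Krt25: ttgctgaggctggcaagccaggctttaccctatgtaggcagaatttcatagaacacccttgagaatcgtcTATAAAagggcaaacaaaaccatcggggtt
Krt31: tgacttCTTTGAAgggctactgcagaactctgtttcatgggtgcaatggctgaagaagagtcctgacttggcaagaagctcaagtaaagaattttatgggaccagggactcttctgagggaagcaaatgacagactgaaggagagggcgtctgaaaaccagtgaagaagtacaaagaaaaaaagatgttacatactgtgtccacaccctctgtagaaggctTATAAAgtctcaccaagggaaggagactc
Krt34: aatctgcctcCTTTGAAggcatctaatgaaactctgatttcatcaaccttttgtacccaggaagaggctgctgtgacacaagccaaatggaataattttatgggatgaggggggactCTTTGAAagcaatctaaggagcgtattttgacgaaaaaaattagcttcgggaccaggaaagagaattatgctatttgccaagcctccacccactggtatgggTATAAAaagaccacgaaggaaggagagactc
Krt10: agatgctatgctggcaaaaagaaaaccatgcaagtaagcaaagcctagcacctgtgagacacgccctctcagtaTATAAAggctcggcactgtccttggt
Krt20: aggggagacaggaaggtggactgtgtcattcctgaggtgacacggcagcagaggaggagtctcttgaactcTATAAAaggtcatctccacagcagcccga
TATAAA occurred in 7 of 7 inner root sheath and 6 of 9 hair shaft promoters, in 17 of 36 keratin promoters (47.2%) and in 12.4% of the 32851 promoters of all genes. CTTTGAA occurred in 5 of 9 hair shaft promoters and in 0 of the other keratin promoters, against 4.46% of all promoters. The usual place of a TATA box is −40 to −19 on the strand of the gene. There TATAAA stood in 13 of 36 keratin promoters (36.1%) and in 1.94% of all promoters. By class these were 5 of 7 inner root sheath, 4 of 9 hair shaft, 2 of 3 mucosal and corneal, 1 of 5 suprabasal and 1 of 5 simple keratin promoters. It stood in 0 of 2 basal, 0 of 2 sheath and 0 of 3 other keratin promoters. In *Krt34* CTTTGAA stood at 2 positions, starting 240 and 133 bases before the transcription start, and in *Krt31* at 1, starting 244 bases before the start. GGGCGG occurred in 2 of 36 keratin promoters and 32.7% of all promoters, and TGANTCA in 1 of 36 and 6.75% of all promoters. No match of a motif overlapped a match of another, and a match describes letters only.

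The scaffolds, called immunological niches (INs), were microporous poly(ε-caprolactone) implants placed under the skin of female mice of 2 strains: NOD/ShiLtJ (NOD), which develops autoimmune diabetes, and the diabetes-resistant NOR/LtJ (NOR). A fresh IN took the place of each one removed, and a mouse therefore gave several INs over time. The 120 RNA libraries comprised 23 from NOR mice (aged 6, 10, 14, 18 or 22 weeks), 58 from 10 NOD progressors, which became hyperglycemic, and 39 from NOD nonprogressors, which did not. Progressor INs were taken at 6 weeks of age (10 libraries), at 7 weeks before onset (−7, 8 libraries) and at −5, −3 and −1 weeks and onset (10 each), and nonprogressor INs at 6 weeks (11), at 10, 18 and 22 weeks (4 each), at 14 weeks (10) and at 31, 38 or 108 days after implantation (2 each). Batch 1 held 74 libraries, all NOR libraries among them, and batch 2 held 46, with progressor mice 1 to 5 in batch 1 (apart from the −7 libraries of mice 1 to 4) and mice 6 to 10 in batch 2. Scaffolds have no epithelium of their own, and the labels name the tissue only as the niche, so its makeup was read from marker genes: the summed level of 4 macrophage markers was 2726 to 8539 CPM (a gene's counts scaled by the size of its library) in the 120 libraries, of 4 fibroblast markers 4247 to 67540 CPM, and of 4 skeletal muscle markers 0.331 to 19732 CPM.

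Libraries of batch 1 held 4722396 counts at the lowest, 30186412 at the median and 56185434 at the highest, and those of batch 2 held 29029239, 36440355 and 43880986. A count of 0 allows a level of up to 3 counts, which is 0.0524 to 2.93 CPM in batch 1 (median 0.103) and 0.0646 to 0.0855 CPM in batch 2, counting error only. The 2.93 CPM belongs to NOR mouse 5 at 18 weeks, whose keratin reads came to 12 of *Krt80*, 13 of *Krt7*, 8 of *Krt73* and 6 of *Krt5*. Counts of replicate libraries differed by more than sampling noise in all 239 pairs, the lowest chi-square per degree of freedom being 11.0.

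Across the 120 libraries, a few keratins were found in nearly all and most were low outside a few libraries. Counts of *Krt80* and *Krt7* were present in every library and of *Krt19* in 119, and these 3 were the only keratins above 1 CPM in more than 60 libraries. Krt80 is a keratin of many epithelia that has been linked to cell junctions, and its level had a median of 8.85 CPM and ran from 3.19 to 80.4. *Krt7* lay between 0.481 and 30.7 CPM and *Krt19* between 0 and 259 CPM. *Krt80* overlaps an antisense gene, and the strand used in counting is not given in the sources used here, so reads of the pair cannot be told apart. None of the 54 was without any count, 7 never passed 1 CPM, and 23 passed 100 CPM in some library. Summed over all keratins, NOR libraries had a median of 27.5 CPM (12.4 to 140), nonprogressor libraries 24.4 CPM (8.37 to 902) and progressor libraries 56.6 CPM (6.62 to 7698).

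**Figure D1:**
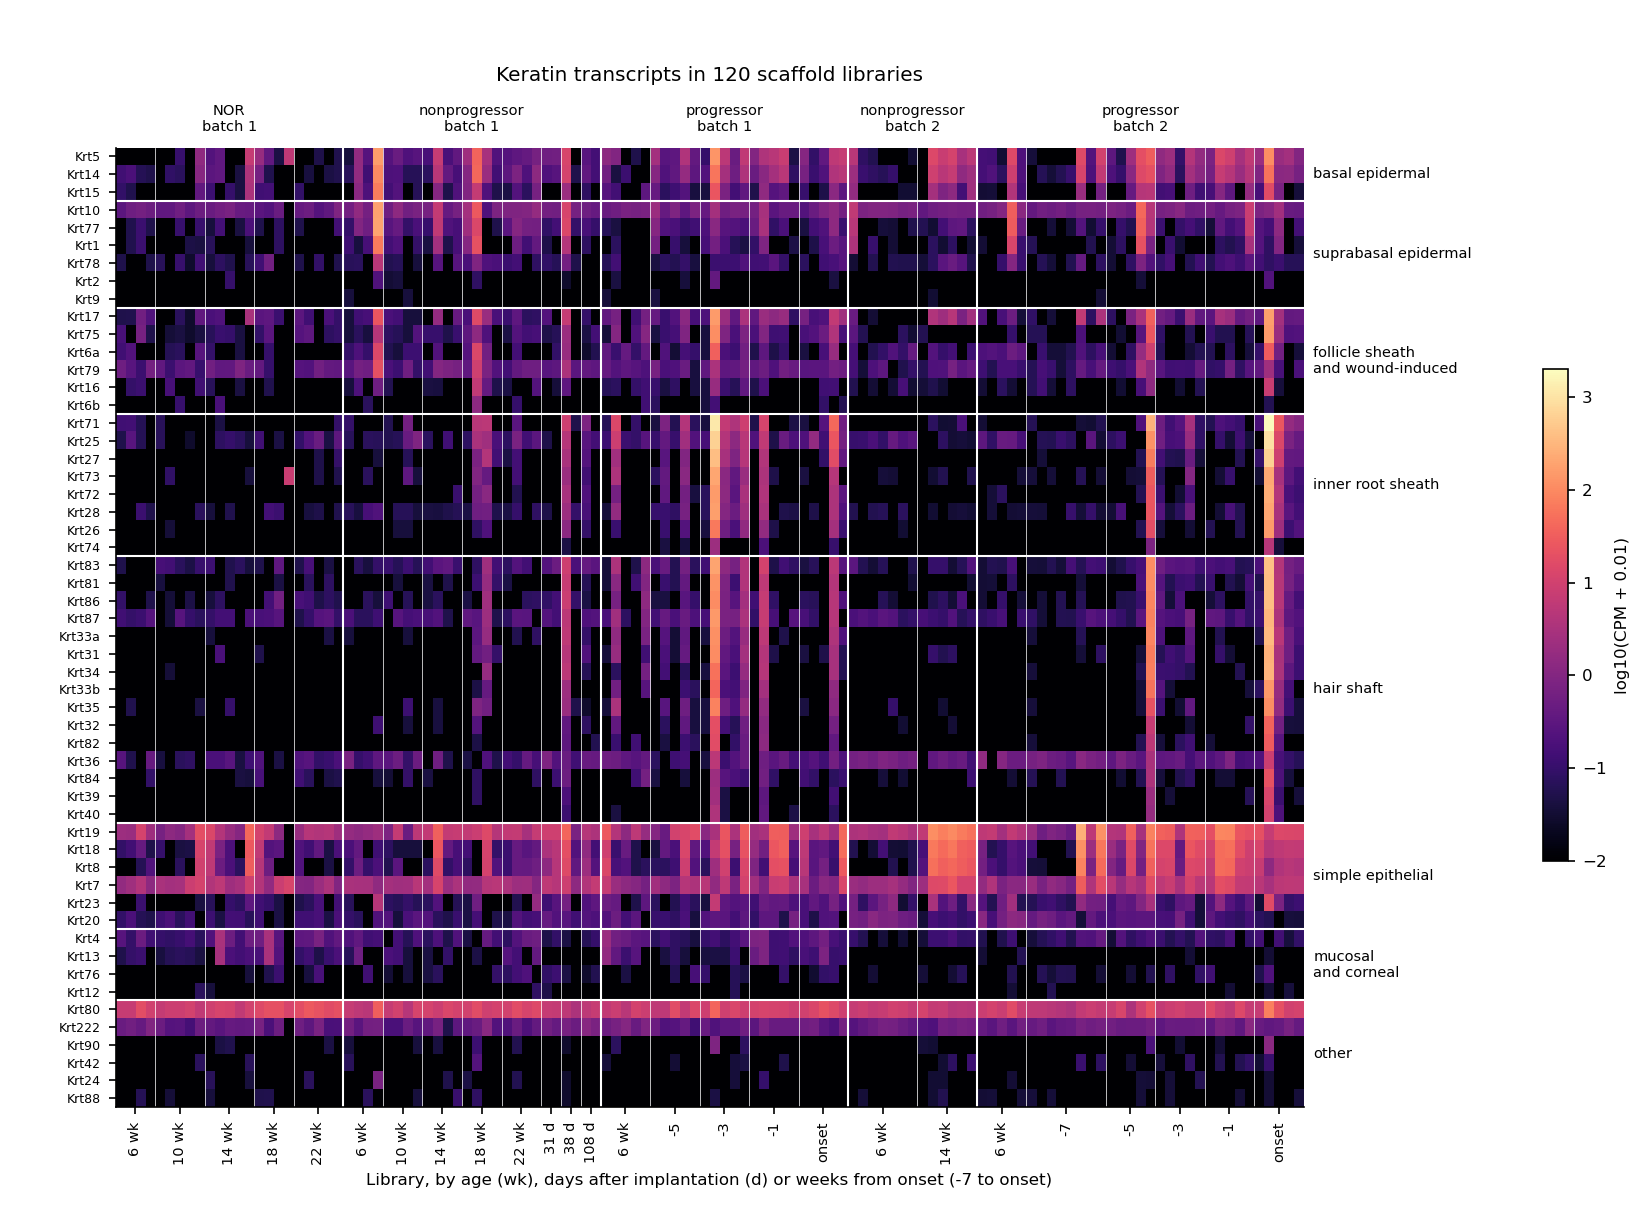
Heat map of the 54 keratins (rows, grouped by class) in 120 libraries (columns, by mouse class, batch and time), with colour as log10 of CPM plus 0.01. *Krt80*, *Krt7* and *Krt19* are seen in nearly every column, whereas hair keratins light up together in few columns and reach 1862 CPM (*Krt71*).

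The libraries highest in each set overlapped in part. Of the 10 libraries highest in basal keratins, 6 were also among the 10 highest in suprabasal keratins (60% of each list), 4 among the 10 highest in hair keratins (inner root sheath and hair shaft) and 3 among the 10 highest in simple keratins. Hair and simple keratins shared 1 library in their lists of 10, as did simple and suprabasal keratins, and hair and suprabasal keratins shared 3. These are descriptions of the same 120 libraries, with no test.

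Hair keratins were the sharpest case. The 8 inner root sheath and 15 hair shaft keratins together passed 10 CPM in 14 of 120 libraries, of which 11 were from progressors (of 58), 3 from nonprogressors (of 39) and 0 from NOR mice (of 23). Their median was 0.653 CPM in NOR libraries, 0.979 in nonprogressors and 1.22 in progressors. Of these, 3 libraries passed 1000 CPM, and all came from progressors: 7031 CPM at onset in mouse 7 (batch 2), 3802 CPM at −3 weeks in mouse 2 (batch 1) and 1328 CPM at −5 weeks in mouse 10 (batch 2). The next library, mouse 4 at onset (batch 1), had 130 CPM.

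*Krt71*, a type II keratin of the inner root sheath, had the highest mean CPM in its class. Its level in the 3 libraries just named was 1862, 1178 and 291 CPM, against a highest level of 0.131 CPM in the 23 NOR libraries. At onset the 5 batch 2 libraries (mice 6 to 10) had 0.152, 1862, 25.3, 1.68 and 1.11 CPM. The 5 batch 1 libraries at onset (mice 1 to 5) had 0.0326, 0, 0.243, 42.1 and 0.548 CPM, so that 1 or 2 mice carried most of the reads in each batch. At −3 weeks, mice 1 to 5 had 0.0310, 1178, 6.53, 3.67 and 8.72 CPM and mice 6 to 10 had 0.502, 0.125, 0.240, 2.77 and 0.0762 CPM. By contrast the 8 libraries at −7 weeks stayed between 0 and 0.0526 CPM. Only 3 nonprogressor libraries passed 1 CPM of *Krt71*: mouse 2 and mouse 3 at 18 weeks (4.76 and 5.26 CPM) and mouse 1 at 38 days after implantation (8.82 CPM).

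Within the 3 libraries richest in hair keratins, levels were compared between genes per kilobase of exon. *Krt71* was the highest keratin in each of them, with 852 CPM per kb in mouse 7 at onset, 539 in mouse 2 at −3 weeks and 133 in mouse 10 at −5 weeks. *Krt25*, its type I neighbour in the inner root sheath, had 473, 312 and 61.0 CPM per kb. *Krt83*, a type II keratin of the hair shaft, had 220, 109 and 61.2 CPM per kb, which placed it at rank 2 of all keratins in mouse 10 and at rank 4 in the other 2 libraries. All 15 libraries with at least 20 counts of both genes had more *Krt71* than *Krt25* per kb, with a median ratio of 1.70 (1.36 to 2.54). *Krt86* and *Krt31*, a pair of the hair cortex, had a median ratio of 1.12 (0.288 to 1.42, 9 libraries). Several hair keratins have near-identical paralogs next to them, and reads could be split among *Krt81*, *Krt83*, *Krt86* and *Krt87*, or between *Krt33a* and *Krt33b*, in the authors' counting.

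Other genes of the growing follicle moved with these libraries. The summed level of 10 hair follicle regulators and structural genes (*Hoxc13*, *Foxn1*, *Msx2*, *Dlx3*, *Lef1*, *Shh*, *Tchh*, *Padi3*, *Lhx2* and *Gsdma3*) had a median of 3.53 CPM over 120 libraries and was 2263, 2833 and 309 CPM in mouse 7 at onset, mouse 2 at −3 weeks and mouse 10 at −5 weeks. Most of this was *Tchh*, which encodes trichohyalin of the inner root sheath, at 1947, 2582 and 264 CPM (median 1.63). The other 9 genes summed to 316, 251 and 44.6 CPM, against a median of 1.36 CPM. Keratin partners, a list of 22 desmosome and cornified envelope genes that anchor keratin filaments or form the outer layers with them, summed to 1998, 1425 and 440 CPM there, against a median of 88.1 CPM. Suprabasal keratins were at 1.60, 4.98 and 9.65 CPM in the same 3 libraries, against a median of 0.820 CPM, and basal keratins reached 183, 220 and 56.1 CPM. Whether follicle cells or skin were taken out with these scaffolds was not tested.

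**Figure D2:**
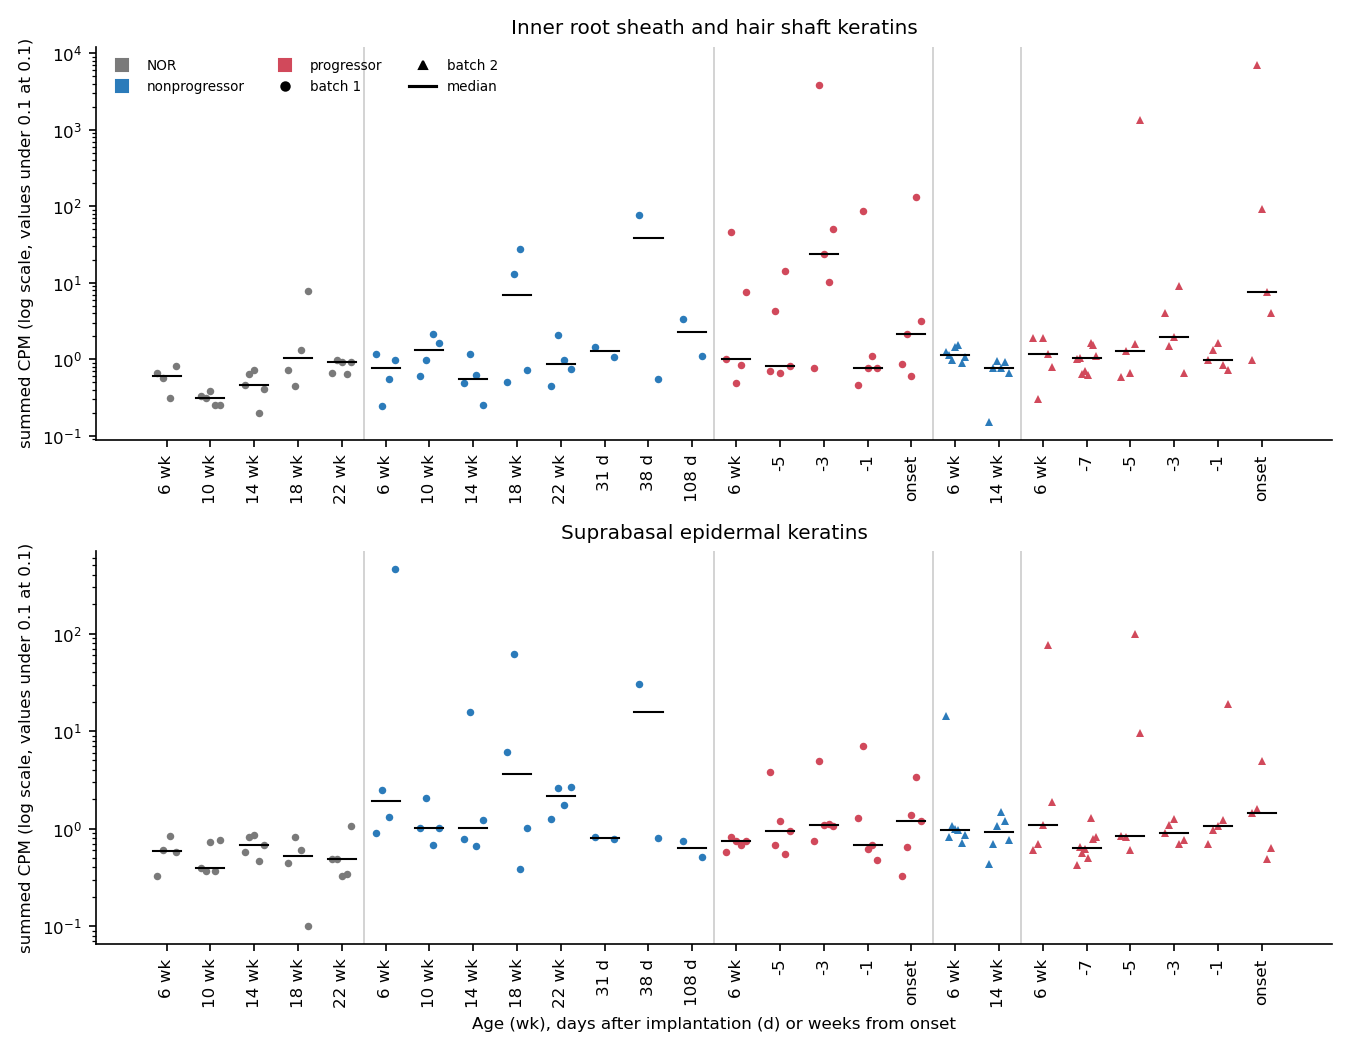
Summed CPM of hair keratins (inner root sheath and hair shaft, top) and suprabasal keratins (bottom) by group and time, on a log scale with 1 point a library, a bar at the median, circles for batch 1, triangles for batch 2 and values under 0.1 drawn at 0.1. The 3 highest points for hair keratins, at 7031, 3802 and 1328 CPM, are progressor libraries, and the highest for suprabasal keratins, at 457 CPM, is a nonprogressor library at 6 weeks of age.

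Epidermal keratins had their own libraries. Suprabasal keratins passed 10 CPM in 8 libraries, 5 from nonprogressors, 3 from progressors and 0 from NOR mice. Mouse 4 of the batch 1 nonprogressors at 6 weeks had 457 CPM, with 338 CPM of basal keratins and 0.992 CPM of hair keratins. After it came progressor mouse 9 at −5 weeks (99.5 CPM) and at 6 weeks (76.0 CPM) and nonprogressor mouse 2 at 18 weeks (61.4 CPM). Keratin partners summed to 863, 165, 183 and 243 CPM in these 4 libraries. *Krt10*, the type I keratin that replaces Krt14 above the basal layer, was at 187 CPM in the first of them and at a median of 0.627 CPM over 120 libraries, and *Krt77*, a further type II suprabasal keratin, was at 196 CPM there. *Krt10* overlaps an antisense gene, with the same limit as for *Krt80*.

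The basal pair was the more even of the epidermal pairs. In the 46 libraries with at least 20 counts of both, *Krt5* stood at 1.28 times *Krt14* per kb (median, 0.717 to 2.37). *Krt1* was below *Krt10* in all 12 such libraries, with a median ratio of 0.186 (0.0752 to 0.376). *Krt6a* and *Krt17*, which keratinocytes make after wounding and in the follicle sheath, had a median ratio of 0.179 (0.109 to 0.641, 10 libraries). *Krt75*, a keratin of the companion layer of the follicle, had the second highest mean level among the sheath keratins and *Krt17* the highest, at 172 CPM in progressor mouse 7 at onset.

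Simple epithelial keratins formed the third pattern. *Krt8* passed 1 CPM in 42 of 120 libraries, and the summed simple keratins were highest in progressor mouse 7 (498 CPM) and mouse 10 (251 CPM) at −7 weeks, in nonprogressor mouse 6 (245 CPM) and mouse 8 (235 CPM) at 14 weeks and in progressor mouse 7 (207 CPM) and mouse 8 (196 CPM) at −1 weeks, all of batch 2. *Krt8* was below *Krt18* per kb in 45 of the 47 libraries with at least 20 counts of both (median ratio 0.528, 0.231 to 1.06). These 6 libraries also held 50.5 to 119 CPM of 5 simple epithelium markers (*Epcam*, *Cdh1*, *Cldn7*, *Esrp1* and *Elf3*) and 30.6 to 83.0 CPM of 7 mammary epithelium markers (caseins, *Wap*, *Lalba*, *Wfdc18* and *Elf5*), against medians of 12.6 and 0.418 CPM over 120 libraries. High levels of the simple epithelium markers were not limited to these 6 libraries. Their highest sum, 145 CPM, was in another progressor library of batch 2 after 6 weeks of age. A batch 1 progressor library after 6 weeks reached 94.2 CPM. Whether mammary tissue was taken along was not tested. *Krt8* overlaps a long noncoding RNA gene on the other strand, and *Krt7* an antisense gene, with the same limit.

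**Figure D3:**
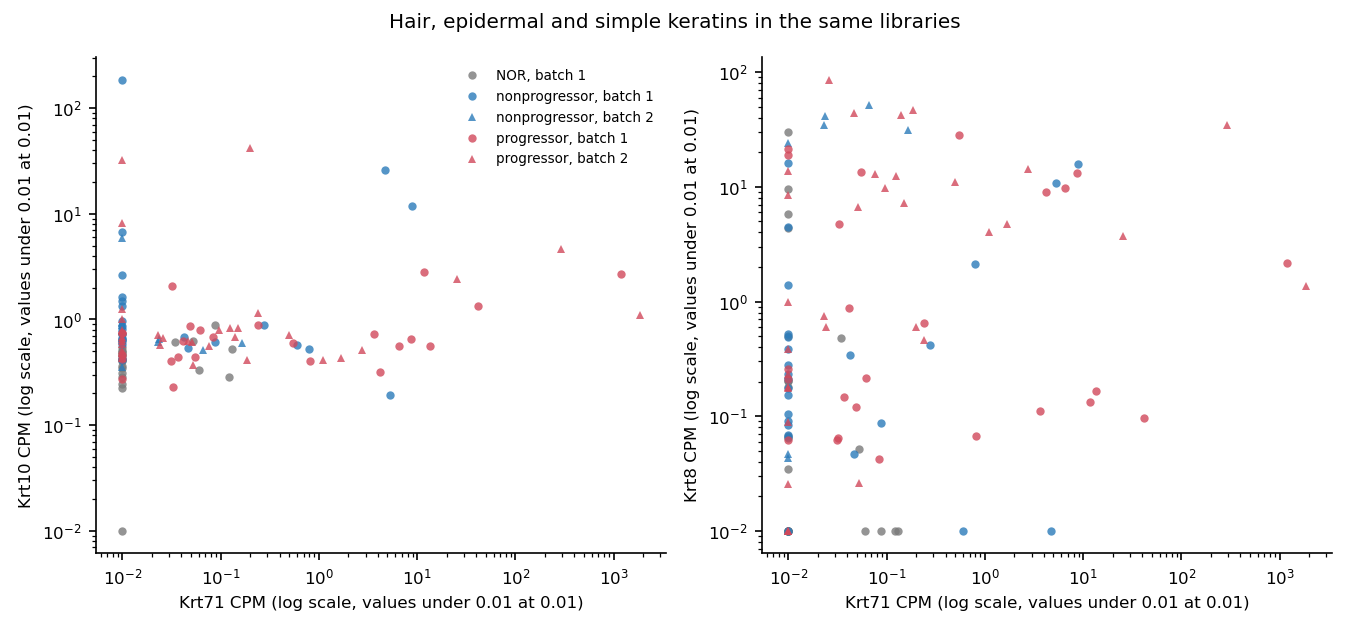
*Krt71* (hair) against *Krt10* (suprabasal, left) and against *Krt8* (simple, right), in CPM on log scales with 1 point a library, coloured by mouse class and shaped by batch, and values under 0.01 drawn at 0.01. The library with 187 CPM of *Krt10* and the 2 libraries with over 1000 CPM of *Krt71* lie far apart, and *Krt8* is high both with and without *Krt71*.

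The remaining keratins were low. *Krt4* and *Krt13*, the pair of the oral and oesophageal lining, reached 3.08 and 3.12 CPM in NOR libraries and 2.02 and 1.58 CPM in a progressor library at 6 weeks. In batch 2 *Krt13* had no count in any of the 13 nonprogressor and in 29 of the 33 progressor libraries. *Krt222*, a keratin-like gene of unclear function, stayed at 0.436 CPM (median) and never passed 1.20 CPM. Bulk RNA does not separate fewer cells of a type from less RNA per cell, and this holds for every keratin value here.

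The strains were compared first, because NOR mice share much of the NOD background without the disease. Within batch 1, libraries were summed to 1 per mouse (5 NOR, 5 progressors and 4 nonprogressors). Of 34 keratins with enough counts to be tested, 1 was called higher in NOD and 0 lower (adjusted p under 0.05, edgeR). Over all genes, 3.87% were called higher and 5.11% lower. The keratin called, *Krt6a*, was between 0 and 0.255 CPM in the 23 NOR libraries (median 0), between 0 and 13.9 in the batch 1 nonprogressor libraries (median 0.0650) and between 0 and 33.6 in the batch 1 progressor libraries (median 0.0986), so the ranges overlapped. *Krt6a* also overlaps an antisense gene, with the limit given for *Krt80*. Its log2 fold change was 5.14 (standard error, SE, 1.45, adjusted p = 0.0392). Without the library richest in hair keratins in this batch the adjusted p was 0.0601, and without the libraries over 50 CPM of suprabasal keratins it was 0.0922 (edgeR in each case). The call was also lost without any 1 of 8 mice, which were all 5 NOR mice (adjusted p 0.0734 to 0.0907 by edgeR), progressor mouse 2 (0.0509) and nonprogressor mice 2 (0.0582) and 4 (0.0551).

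Among the keratins that missed the threshold, *Krt71* had a mean of 0.0175 CPM in 5 NOR mice and 24.4 CPM in 9 NOD mice (medians 0.0168 and 0.852), with a log2 fold change of 10.3 and a SE of 3.20 (edgeR, adjusted p = 0.0584). *Krt10* had means of 0.425 and 6.73 CPM (log2 fold change 3.97, SE 1.38, adjusted p = 0.0890 by edgeR), and *Krt14* had 0.347 and 5.65 CPM (4.04, SE 1.36, adjusted p = 0.0796). *Krt8* lay at 2.72 and 2.94 CPM, a log2 fold change of 0.099 with a SE of 1.16. Hair keratins near 0 in NOR passed the count filter through NOD libraries, so the filter favoured a positive difference for them. The same limit holds for *Krt6a*, the keratin called, and for *Krt1* and *Krt77*, which were also near 0 in NOR. Of 19 keratin partners tested, 3 were called higher and 0 lower, and of 7 hair follicle regulators 0 were called. The number of keratins called depended on the setting, with 19 of 34 by DESeq2 (3013 of 23387 genes), 5 of 11 with each library entered separately (1771 of 18974) and 0 of 12 at 6 weeks of age alone (403 of 19078).

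At 6 weeks of age, the earliest time taken, progressors (10 libraries) and nonprogressors (11) were compared with the batch as a covariate. *Krt19*, the type I keratin of simple epithelia that has no tail domain, had the smallest p of 8 keratins tested. Its level was 1.31 to 26.5 CPM in the 5 batch 1 progressors (median 4.18) and 1.39, 1.65, 1.67 and 2.22 CPM in the batch 1 nonprogressors, while in batch 2 it was 2.58 to 6.60 CPM (median 5.84) and 2.59 to 6.01 CPM (median 3.50). The log2 fold change was 1.13 (SE 0.44, adjusted p = 0.891 by edgeR). By edgeR, 0 keratins were called (1 with an unadjusted p under 0.05), as were 0% of all 19082 genes in either direction (985 with an unadjusted p under 0.05), and DESeq2 called 0 keratins. Hair keratins were below the count filter at this age apart from *Krt36*, and *Krt71* passed 1 CPM in 1 of the 21 libraries, progressor mouse 2 (13.6 CPM).

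After 6 weeks, libraries were summed per mouse, 10 progressors against 10 nonprogressors. By edgeR 0 of 29 keratins tested passed the adjusted threshold, as did 0% of all 22769 genes in either direction. *Krt71* had a median of 4.13 CPM over the 10 progressors (lowest 0.0339, highest 370) and 0.0232 CPM over the 10 nonprogressors (lowest 0, highest 1.15). It passed 1 CPM in 7 of 10 progressors and 1 of 10 nonprogressors, and *Krt86* did so in 5 and 0. Progressors had 4 or 5 libraries each after 6 weeks and nonprogressors 4 in batch 1 and 1 in batch 2, so the sums rest on unequal numbers of INs. The −7 libraries of progressor mice 1 to 4, sequenced in batch 2, were left out of these sums.

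The log2 fold change of *Krt71* was 8.09 (SE 1.63, adjusted p = 0.144), and those of *Krt86* (7.49, SE 1.49), *Krt83* (6.87), *Krt27* (8.25), *Krt31* (7.85) and *Krt87* (6.17) had the same adjusted p by edgeR. Of the 29 keratins, 13 had an unadjusted p under 0.05 (1651 of all genes). DESeq2 called 9 of 29 (54 of 22769 genes). Hair keratins near 0 in nonprogressors passed the count filter through progressor libraries, so the filter favoured a positive difference for them here too. Without the 3 libraries over 1000 CPM of hair keratins the log2 fold change of *Krt71* was 3.74 (adjusted p = 0.524), and in batch 1 alone it was 6.98 (adjusted p = 0.943, edgeR). Differences smaller than their SEs were found for simple keratins *Krt8* (0.14, SE 0.83), *Krt18* (0.26, SE 0.87) and *Krt19* (−0.20, SE 0.52). The same held for basal *Krt14* (0.42, SE 0.80) and *Krt15* (0.56, SE 0.85). It also held for suprabasal *Krt10* (0.42, SE 0.76), *Krt1* (0.38, SE 1.49) and *Krt77* (0.88, SE 1.17). *Krt20* had a log2 fold change of 0.63 (SE 0.20, adjusted p = 0.595 by edgeR). Of 7 hair follicle regulators and 16 keratin partners, 0 were called by edgeR.

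**Figure D4:**
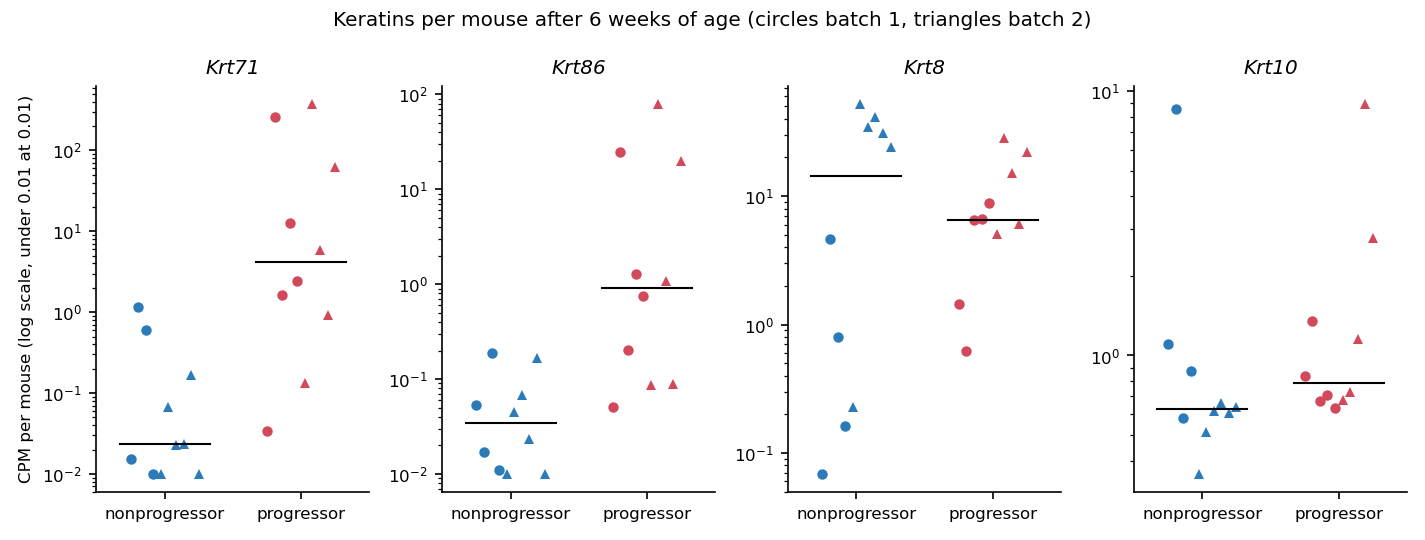
CPM per mouse after 6 weeks of age of *Krt71*, *Krt86*, *Krt8* and *Krt10* (log scale, 1 point a mouse, bars are medians, circles batch 1, triangles batch 2, values under 0.01 drawn at 0.01). *Krt71* passes 1 CPM in 7 of 10 progressors and 1 of 10 nonprogressors, and the ranges of the 2 classes overlap in all 4 panels.

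In NOR mice, INs taken at 10 to 22 weeks were compared with those at 6 weeks. *Krt222* had the smallest p of 10 keratins tested, with 0.417 to 0.937 CPM in the 4 libraries at 6 weeks and 0 to 0.728 CPM (median 0.368) in the 19 later ones, a log2 fold change of −0.67 (SE 0.37, adjusted p = 0.794 by edgeR). None of the 10 was called by edgeR or DESeq2, and 0 had an unadjusted p under 0.05. Of all 19628 genes, 0% were called higher and 0.0357% lower, 1341 having an unadjusted p under 0.05. *Krt8* passed 1 CPM in 4 of the 19 later libraries (highest 30.4 CPM) and in 0 of 4 at 6 weeks.

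Nonprogressors of batch 1 had lower epidermal keratins at 10 to 22 weeks than at 6 weeks, and the difference rested on 1 library. *Krt10* was at 0.610, 1.48, 0.639 and 187 CPM in mice 1 to 4 at 6 weeks and at 0.195 to 26.2 CPM later (16 libraries, median 0.838). *Krt5* was at 0.0290, 1.61, 0.244 and 167 CPM at 6 weeks, so mouse 4 alone was high. Of 15 keratins tested, 8 were called lower and 1 higher by edgeR, against 6.61% of all genes lower and 7.15% higher. The lower keratins were all 3 basal, 3 suprabasal and 2 sheath keratins, led by *Krt15* (fell by 5.64 on the log2 scale, SE 1.09, adjusted p = 0.00418), a basal keratin of the follicle bulge, *Krt77* (fell by 5.60, adjusted p = 0.00521) and *Krt10* (fell by 4.61, adjusted p = 0.00688). *Krt19* was called higher (1.98, SE 0.64, adjusted p = 0.0461). Without mouse 4 the log2 fold changes of *Krt10* and *Krt5* were 1.22 and 1.14, of the opposite sign, and 0 keratins were called. With the mouse as a block 0 were called by edgeR as well (*Krt15* adjusted p = 0.0625). In the library of mouse 4, keratin partners summed to 863 CPM and muscle markers to 8046 CPM, and 14 of 16 partners tested were called lower at the later ages.

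In nonprogressors of batch 2, simple keratins were higher at 14 weeks (6 libraries) than at 6 weeks (7), and *Krt20* was lower. *Krt19* was between 2.59 and 6.01 CPM at 6 weeks (median 3.50). At 14 weeks, mice 5 to 10 had 6.11, 109, 77.3, 104, 68.6 and 53.9 CPM of *Krt19*, all above the 6-week range, with mouse 5 close to it. Its log2 fold change was 4.19 (SE 0.48, adjusted p = 0.000128 by edgeR). *Krt7*, a type II keratin of glands and ducts, was at 0.952 to 2.88 CPM at 6 weeks and 2.11 to 25.4 at 14 weeks (log2 fold change 2.84, SE 0.42, adjusted p = 0.00039 by edgeR), with mouse 5 inside the 6-week range.

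*Krt20*, a type I keratin known from intestine, urothelium and Merkel cells, was at 0.454 to 1.19 CPM at 6 weeks (median 0.666) and 0.0255 to 0.156 CPM at 14 weeks, without overlap. It fell by 2.72 on the log2 scale (SE 0.34, adjusted p = 0.000184 by edgeR). *Krt17* rose by 5.13 (SE 1.05, adjusted p = 0.00246) and *Krt14* by 3.58 (adjusted p = 0.0223), and *Krt10* fell by 1.44 (adjusted p = 0.0482). The latter 2 calls were lost with the mouse as a block (adjusted p = 0.0691 and 0.179 by edgeR). Leaving out 1 mouse also ended them, for *Krt14* without mouse 6, 7, 8 or 10 (adjusted p 0.0519 to 0.0871 by edgeR) and for *Krt10* without any 1 of mice 5 to 10 (0.0567 to 0.08). In all, 4 of 11 keratins tested were called higher and 2 lower, against 16.8% of all genes higher and 17.3% lower.

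*Krt8* and *Krt18* were below the count filter in this comparison, being low in all 6-week libraries and also in mouse 5 at 14 weeks. *Krt8* was at 0 in 5 of 7 libraries at 6 weeks and at most at 0.0464 CPM, and at 0.229, 51.7, 34.4, 41.4, 31.1 and 24.1 CPM in mice 5 to 10 at 14 weeks. Fitted without the filter, the log2 fold changes were 10.9 for *Krt8* (adjusted p = 3.13e-05 by edgeR) and 9.84 for *Krt18* (adjusted p = 4.89e-05). *Epcam*, a surface protein of simple epithelia, was at 0.229 CPM in mouse 5 and 9.69 to 22.5 CPM in mice 6 to 10, the same mice that were high in *Krt8*. All 4 simple epithelium markers tested and all 4 skeletal muscle markers were called higher at 14 weeks, and all 4 fibroblast markers lower. Mammary markers were at 0.139 to 0.355 CPM at 6 weeks and 0.484 to 83.0 CPM at 14 weeks. Their part in the keratin result was not tested.

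**Figure D5:**
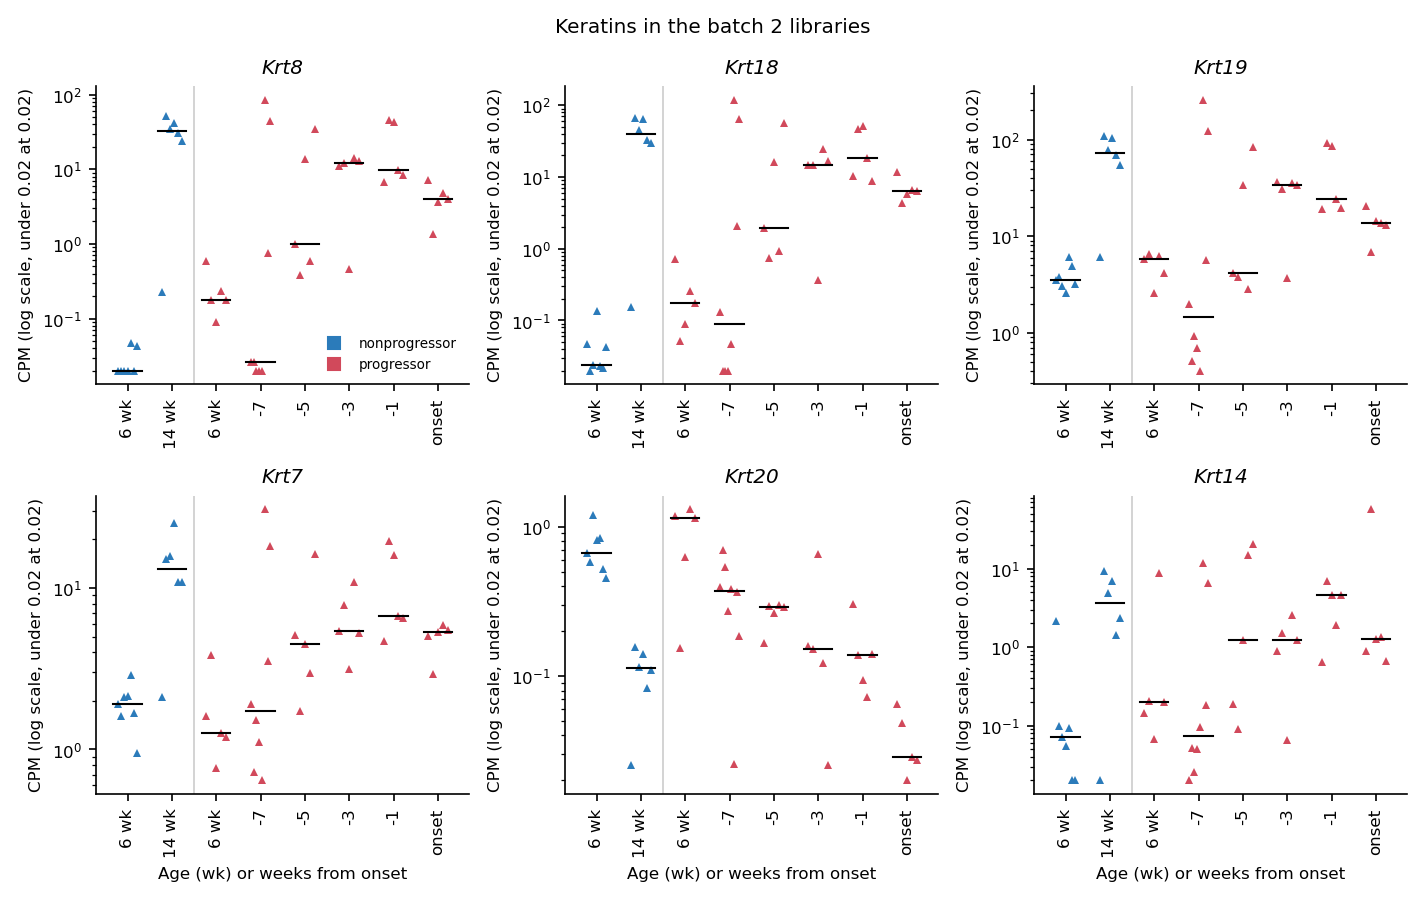
*Krt8*, *Krt18*, *Krt19*, *Krt7*, *Krt20* and *Krt14* in batch 2 by group and time (CPM, log scale, 1 point a library, bars are medians, values under 0.02 drawn at 0.02). *Krt20* lies at 0.454 to 1.19 CPM in nonprogressors at 6 weeks and at 0.0255 to 0.156 at 14 weeks, and *Krt8* in the same groups goes from at most 0.0464 CPM to between 0.229 and 51.7.

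In progressors of batch 2, *Krt20* was again lower and 3 simple keratins were higher when the later times (28 libraries) were compared with 6 weeks (5). The later libraries include the −7 libraries of progressor mice 1 to 4, whose 6-week libraries are in batch 1. *Krt20* was at 1.17, 0.153, 0.628, 1.30 and 1.15 CPM in mice 6 to 10 at 6 weeks and at 0 to 0.695 CPM later (median 0.162), and fell by 2.42 on the log2 scale (SE 0.39, adjusted p = 2.41e-05 by edgeR). *Krt8* was at 0.598, 0.179, 0.0897, 0.233 and 0.175 CPM at 6 weeks and at 0 to 86.2 CPM later (median 5.76, over 1 CPM in 18 of 28), so the ranges overlapped. It rose by 5.43 (SE 1.76, adjusted p = 0.0194), *Krt18* by 5.92 (adjusted p = 0.0133) and *Krt7* by 2.01 (adjusted p = 0.0376, edgeR for each). The call of *Krt8* was lost without mouse 8, 9 or 10 (adjusted p = 0.062, 0.0569 and 0.0802 by edgeR) and that of *Krt18* without mouse 10 (0.0596). *Krt7* was not among the 2 keratins called without mouse 9 or the 3 called without mouse 10, whereas *Krt20* was called in both. Of 29 keratins tested, 3 were called higher and 4 lower, against 14.7% and 16.1% of all genes, so keratins were not called more often than all genes.

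The other 3 keratins called lower, *Krt77*, *Krt1* and *Krt10*, are suprabasal and rested on progressor mouse 9. *Krt10* was at 0.574, 0.690, 1.01, 32.6 and 1.25 CPM in mice 6 to 10 at 6 weeks and fell by 2.21 on the log2 scale (adjusted p = 0.0167 by edgeR). With the mouse as a block, the adjusted p was 0.524 for *Krt10*, 0.672 for *Krt77* and 0.454 for *Krt1*, and 4 keratins were called in all. Without mouse 9, *Krt10* and *Krt77* had log2 fold changes of 0.41 and 1.55, of the opposite sign. Simple epithelium markers (3 of 5 tested) and mammary markers (3 of 6) were called higher in this comparison and all 4 fibroblast markers lower, and their part in the result was not tested.

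In progressors of batch 1 the keratins called were others. *Krt4* was at 2.02, 0.592, 0.459, 0.296 and 0.250 CPM in mice 1 to 5 at 6 weeks and at 0.0306 to 0.895 CPM in the 20 later libraries (median 0.137). It fell by 1.95 on the log2 scale (SE 0.44, adjusted p = 0.00334 by edgeR), and *Krt13* fell by 2.17 (SE 0.63, adjusted p = 0.0148). *Krt77* was at 0.0555, 0.0329, 0, 0 and 0 CPM at 6 weeks and at 0 to 3.18 later (median 0.180), a log2 fold change of 4.11 (adjusted p = 0.0277), and *Krt14* was at 0.582, 0.0329, 0.106, 0 and 0 CPM and then at 0.0731 to 61.3 (median 0.906), a log2 fold change of 3.84 (adjusted p = 0.0400, and 0.0872 with the mouse as a block). *Krt222* fell by 0.86 (adjusted p = 0.0321). The call of *Krt4* was lost without mouse 1 (adjusted p = 0.094 by edgeR), and without any 1 of the 5 mice 2 or 3 keratins were called. All 4 fibroblast markers and *Msln*, a mesothelium marker, were called lower and *Cdh1*, 1 of 5 simple epithelium markers, higher, and their part in the result was not tested. Of 36 keratins tested, 2 were called higher and 3 lower by edgeR, against 13.7% and 13.4% of all genes. Keratins were thus called less often than all genes in both directions. The called keratins included 0 of 7 inner root sheath and 0 of 11 hair shaft keratins.

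All 58 progressor libraries were then fitted together, with the batch as a covariate, to ask whether a keratin differed between any of the 6 times. By edgeR's quasi-likelihood F test, 25 of 37 keratins were called, against 35.6% of all 21279 genes. Hair keratins near 0 in most progressor libraries passed the count filter through the libraries where they were higher. The filter thus favoured a difference between times for them, and no excess over all genes is read from the count. They were 7 of 7 inner root sheath keratins, 10 of 11 hair shaft, 3 of 4 sheath (*Krt75*, *Krt6a* and *Krt17*) and 3 of 3 suprabasal keratins (*Krt10*, *Krt1* and *Krt77*), with *Krt20* of 6 simple keratins and *Krt80*, and 0 of 3 basal keratins. *Krt27* (5.9e-05) and *Krt25* (8.9e-05) had the lowest adjusted p. All 8 libraries of −7 weeks belong to batch 2, and they were low in hair keratins (*Krt71* at most 0.0526 CPM).

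Of the other lists in the same test, 6 of 6 hair follicle regulators, 13 of 17 keratin partners and 4 of 4 fibroblast markers were called. Without the 3 libraries over 1000 CPM of hair keratins, 15 keratins were called, among them 5 of 6 inner root sheath and 5 of 8 hair shaft keratins. DESeq2 called 7 with all libraries. The shares of all genes called in these settings are not given here, so these counts are not set against them. All inner root sheath and hair shaft keratins except *Krt36* (31.9%) and *Krt84* (85.4%) had 92.3% to 95.8% of their summed CPM in their 3 highest libraries, so a difference between times rests on few INs.

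INs labelled by days after implantation were too few for a test and are given as values, and the labels do not say whether their mice 1 and 2 are those of the series by age. At 38 days, nonprogressor mouse 1 had 8.82 CPM of *Krt71*, 8.89 of *Krt83*, 11.9 of *Krt10*, 12.5 of *Krt5*, 11.5 of *Krt14* and 15.9 of *Krt8*. Mouse 2 of that day had 0.0425, 0.170, 0.679, 0, 0.0425 and 0.340 CPM of the same keratins, so the 2 INs of that day were apart in every set. The 4 libraries of 31 and 108 days had at most 0.803 CPM of *Krt71* and 0.619 CPM of *Krt10*.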

How the data were processed

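Gene expression was measured by bulk RNA sequencing of 120 scaffold libraries (total RNA, ribosomal RNA depletion). The authors deposited expected counts per Ensembl gene, whole numbers without normalization, in 1 table for each batch. The submitters' processing notes name cutadapt, FastQC, STAR, RSEM, MultiQC and GRCm38, while versions and the counting strand are not given in the sources used here. Libraries were grouped by their labels. CPM used totals scaled by TMM (edgeR 4.0.16, R 4.3.3), and exon lengths came from GENCODE M21, which matched all 54 keratins.

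Genes were filtered with filterByExpr and tested in edgeR by glmQLFTest, its quasi-likelihood test, with p-values adjusted by Benjamini-Hochberg (threshold 0.05) over all genes tested. Fits that hold both batches had a term for batch. For the comparison of strains and of progressors after 6 weeks, libraries were summed per mouse. The other comparisons treat repeated INs of a mouse as separate libraries. Alternatives were DESeq2 (1.42.0), RLE scaling, no filter, no batch term, 1 batch alone, the mouse as a block and leaving out each mouse or the libraries that stand apart. Libraries pair by mouse, from the numbers in the labels, although deviations from group means were no more alike within a mouse (mean r −0.08 to 0.02) than between mice (0 to 0.01). The 6 libraries labelled by days after implantation entered no test. P-values measure the spread between mice where libraries were summed per mouse, and between libraries in the other comparisons. The edgeR fit was tested on simulated counts, and figures used Python 3.11.15 with matplotlib 3.10.9.

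The keratin rule, the classes and all gene lists were chosen with earlier results of these data known. Named keratins were fixed beside the class counts: 9 anchors, the 2 with the highest mean CPM in each class and up to 6 with the smallest p in each comparison. Others (*Krt33a*, *Krt33b*, *Krt34*, *Krt36*, *Krt40*, *Krt73*, *Krt74*, *Krt84* and *Krt87*) were picked after their values were seen. Promoter sequences are RefSeq's, and protein sequences are not used here.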

Additional observations from a re-analysis of the deposited data

Results flagged for a closer look

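*Krt71*, *Krt10* and *Krt8* were checked in each group of 4 to 10 libraries of a batch for a library far from the others (Dixon's test at 95%). Of 66 groups tested, 37 held such a library (15 for *Krt71*, 10 for *Krt10* and 12 for *Krt8*). Chance flags about 1 in 20 groups only for normally distributed values. These CPM are skewed, with many at or near 0, so no excess over chance is read from the count. The test marks any single value in a group that is otherwise near 0, and 4 of the 37 libraries had fewer than 3 counts of the keratin, the limit that a count of 0 allows.

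For *Krt71* the libraries were, among progressors of batch 1, mouse 2 at 6 weeks of age (13.6 CPM), at −3 weeks (1178 CPM) and at −1 weeks (11.8 CPM), and mouse 4 at −5 weeks (4.22 CPM) and at onset (42.1 CPM). In batch 2 they were progressor mouse 10 at −5 weeks (291 CPM), mouse 9 at −3 weeks (2.77 CPM) and mouse 7 at onset (1862 CPM). Progressor mouse 6 at 6 weeks (0.0239 CPM) was also flagged, at a level under the limit that a count of 0 allows in batch 2. Others stood apart at low levels: NOR mouse 1 at 10 weeks (0.0602 CPM), mouse 2 at 14 weeks (0.0344 CPM) and mouse 5 at 22 weeks (0.0884 CPM), and nonprogressor mouse 1 at 6 weeks (0.0871 CPM), mouse 3 at 10 weeks (0.601 CPM) and mouse 2 at 22 weeks (0.277 CPM).

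For *Krt10* they were nonprogressor mouse 4 at 6 weeks (187 CPM) and at 22 weeks (1.64 CPM), mouse 2 at 14 weeks (6.75 CPM) and at 18 weeks (26.2 CPM), and mouse 5 of batch 2 at 6 weeks (5.95 CPM). Among progressors they were mouse 2 at −3 weeks (2.70 CPM) and −1 weeks (2.82 CPM), mouse 9 at 6 weeks (32.6 CPM) and −5 weeks (42.0 CPM) and mouse 10 at −1 weeks (8.10 CPM). Mouse 9 of the progressors was therefore far above the others at 2 times, 6 weeks and −5 weeks.

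For *Krt8* they were progressor mouse 1 at 6 weeks (13.5 CPM), mouse 4 at −5 weeks (9.07 CPM) and mouse 5 at onset (28.0 CPM) in batch 1, and mouse 6 at 6 weeks (0.598 CPM) and mouse 8 at −3 weeks (0.458 CPM) in batch 2. In NOR mice they were mouse 5 at 10 and 14 weeks (9.61 and 30.4 CPM) and mouse 1 at 18 and 22 weeks (4.40 and 0.204 CPM), and in nonprogressors mouse 2 at 10 and 14 weeks (0.281 and 16.2 CPM) and mouse 3 at 18 weeks (10.9 CPM).

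Among the libraries that entered no comparison, nonprogressor mouse 1 at 38 days after implantation had 8.82 CPM of *Krt71*, 11.9 CPM of *Krt10* and 11.5 CPM of *Krt14*, above every NOR library for each of the 3 keratins.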

How the results depend on the processing

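Counts of keratins called moved past the 1.5-fold limit, within which a count was taken as the same, under some settings. This was so in every comparison in which any setting called a keratin. RLE scaling, the batch term and 1 batch alone moved no count past that limit, and 0 keratins were called at 6 weeks and over age in NOR under every alternative run. For NOD against NOR (1 keratin), DESeq2 called 19, each library entered separately 5, the 6-week libraries alone 0, no libraries over 1000 CPM of hair keratins 6 and no libraries over 50 CPM of suprabasal keratins 3, and leaving out 1 mouse gave 0 to 5 (0 without NOR mouse 1, 2, 3 or 4 or nonprogressor mouse 2, and 2 to 5 without NOR mouse 5, nonprogressor mouse 3 or 4 or any progressor). For progressors against nonprogressors after 6 weeks (0), DESeq2 called 9. For nonprogressors of batch 1 (9), DESeq2 called 2, and the mouse as a block and no libraries over 50 CPM of suprabasal keratins 0 each, and leaving out 1 mouse gave 0 to 8, with 0 without mouse 4 and 2 without mouse 1. For nonprogressors of batch 2 (6), leaving out 1 mouse gave 4 to 10, with 10 without mouse 5. For progressors of batch 1 (5), no filter on low counts gave 3 and leaving out any 1 of the 5 mice 2 to 3. For progressors of batch 2 (7), the mouse as a block gave 4, no libraries over 50 CPM of suprabasal keratins 3 and leaving out 1 mouse 2 to 7, with 2 without mouse 9 and 3 without mouse 10. For any time difference in progressors (25), DESeq2 called 7 and no libraries over 1000 CPM of hair keratins 15, while leaving out 1 mouse gave 22 to 27. Shares of all genes called under these settings are not set beside these counts, apart from those given with the results. The libraries that stand apart were chosen after seeing the data. The cause of these moves was not tested.

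Single keratins changed sign in 2 comparisons. In nonprogressors of batch 1, the log2 fold changes without mouse 4 were 1.24 for *Krt77*, 1.22 for *Krt10*, 1.14 for *Krt5*, 2.64 for *Krt1* and 1.00 for *Krt14*, and over the mice left out in turn the lowest were −7.62, −6.18, −7.05, −5.05 and −6.73 in that order. Without the libraries over 50 CPM of suprabasal keratins they were 0.45 for *Krt77*, 0.48 for *Krt10*, 0.34 for *Krt5* and 1.58 for *Krt1*. In progressors of batch 2, *Krt77* and *Krt10* came to 1.55 and 0.41 without mouse 9 (the lowest, without mouse 10, were −4.53 and −2.73), and to 1.45 and 0.29 without the libraries over 50 CPM of suprabasal keratins. With the mouse as a replicate block, the calls lost are given beside the results, and the count for any time difference was 19. DESeq2 gave no adjusted p for some keratins, which were left out of its counts.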
